A study of Mus musculus with 6 samples.

Results

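Gut hormones and the enzyme that commits tryptophan to serotonin are made by enteroendocrine cells, which lie scattered through the crypts and villi of the intestine. Here 10 genes are described, 9 that encode precursors of gut peptides (Cck, Gcg, Gip, Sst, Ghrl, Nts, Pyy, Sct and Tac1) and Tph1, which encodes tryptophan hydroxylase, the first step of serotonin synthesis outside the brain. They were picked by symbol through the Ensembl identifier, and all 10 of them were found among the 28564 identifiers of the count table. All 10 also passed the filter on low counts, which kept 15122 genes.

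The RNA was taken from the small intestinal crypts of male mice aged 13 weeks, from live single cells sorted for EpCAM and CD44 and against CD31 and CD45. There were 3 samples from Apln-/- mice, which lack the gene for the secreted peptide apelin, and 3 from wild-type control mice (C57Bl/6). The labels call them biological replicates, and they give no further allele, agent or treatment for either group. The labels name no driver that would limit the deletion to 1 cell type.

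Each enteroendocrine cell type is named after its main product, although many of these cells make several products at once. Cck (I cells), Gip (K cells), Ghrl (X cells) and Sct (S cells) are known mostly from the proximal small intestine. Gcg and Pyy (L cells) and Nts (N cells) are known mostly from the distal part, while Sst (D cells), Tac1 and Tph1 (enterochromaffin cells) occur along its length. The precursors are packed into granules with the granins Chga and Chgb and are cut into active peptides by prohormone convertases.

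The libraries held 23046880 to 26513481 counts each, of which 5144725 to 5623112 per Apln-/- library and 6037237 to 7616648 per wild-type library lay outside the 5 most abundant entries, mostly ribosomal RNA. Apln had 0 counts in each of the 3 Apln-/- libraries, against 29, 7 and 5 counts in wild-type libraries 1, 2 and 3. Of the genes of the sort markers, Epcam was at 310 ± 24.6 CPM in Apln-/- and 295 ± 12.9 CPM in wild-type samples (SD, n = 3 each). Of the 3 sort marker genes tested, 1 was lower in Apln-/- samples and 0 higher (edgeR's quasi-likelihood test, unadjusted p under 0.05). The shares of all genes were 7.66% and 7.53%. The lower gene was Ptprc, which encodes CD45, and its groups did not overlap. CPM is a count scaled to the size of its library, here with TMM factors between libraries. Across libraries the 10 genes had 137 to 11449 counts each. The RNA was amplified before library preparation, so these reads are not independent molecules and their number does not give the counting error.

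The stretches of DNA just before the transcription starts of 5 of these genes differ in the motifs they hold. Cck is shown as the hormone with the lowest p between the genotypes, Sct as the one whose fold change lay closest to none, Gip as the most abundant per length, Sst for its cAMP response element, and Tph1 as the serotonin enzyme. The 150 bases before the start are given from the RefSeq promoter table (GRCm38.p6), each read along the strand of its gene. Capitals mark matches to CANNTG (the E-box, bound by basic helix-loop-helix factors such as Neurod1), to TGACG (the core of the cAMP response element), to GGGCGG (the GC box) on either strand, and to TATAA on the strand shown. Neighbouring matches can run together.
Cck, chr9:121495695-121495844, minus strand: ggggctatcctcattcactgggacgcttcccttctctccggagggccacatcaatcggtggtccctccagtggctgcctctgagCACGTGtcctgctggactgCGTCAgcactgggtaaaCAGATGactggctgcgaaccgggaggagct
Gip, chr11:96024395-96024544, plus strand: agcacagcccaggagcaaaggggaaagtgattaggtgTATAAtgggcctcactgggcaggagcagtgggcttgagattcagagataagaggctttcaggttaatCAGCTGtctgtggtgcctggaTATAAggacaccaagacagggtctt
Sct, chr7:141279134-141279283, minus strand: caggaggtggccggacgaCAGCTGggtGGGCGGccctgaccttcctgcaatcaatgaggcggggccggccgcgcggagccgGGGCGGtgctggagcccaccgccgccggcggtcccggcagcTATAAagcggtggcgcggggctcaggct
Sst, chr16:23890845-23890994, minus strand: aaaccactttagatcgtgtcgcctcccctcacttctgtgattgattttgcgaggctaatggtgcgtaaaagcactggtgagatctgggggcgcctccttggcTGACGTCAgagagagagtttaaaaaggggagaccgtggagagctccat
Tph1, chr7:46672538-46672687, minus strand, the first of its 2 listed starts: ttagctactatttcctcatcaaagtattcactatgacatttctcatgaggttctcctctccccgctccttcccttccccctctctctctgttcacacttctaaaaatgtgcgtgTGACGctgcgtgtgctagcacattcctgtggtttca

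The table lists 15 windows for the 10 genes, each 300 bases long and reaching 50 bases past the start. Of the 10 genes only Sst held the full element TGACGTCA, which includes TGACG on both strands, 48 bases before its start, and 1.79% of the 32851 promoter windows of the table hold it. TGACG was found for 5 of the 10 genes (Cck, Nts, Sst, Tac1 and Tph1), in 6 of their 15 windows, against 20.8% of all windows. TATAA was found for 6 of the 10 genes, in 7 of the 15 windows, against 17.5% of all windows. GGGCGG was found for 3 of the 10 genes, in 3 of the 15 windows, against 35.7%. CANNTG was found for 10 of the 10 genes, in 14 of the 15 windows, but it is short and 72.3% of all windows hold it. These matches are letters in a window and do not show binding.

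Set on a scale per length (CPM per kilobase of the longest annotated transcript), Gip and Sst were the most abundant hormone transcripts and Tac1 and Tph1 the least abundant. The level of Gip was 227 ± 10.4 CPM per kilobase in Apln-/- and 358 ± 225 in wild-type samples, and that of Sst 192 ± 29.7 in Apln-/- and 263 ± 79.7 in wild-type samples (SD, n = 3 each, here and for every mean ± SD given). Gip lay above Sst by more than either SD in Apln-/- samples, and by less than the SD of Gip in wild-type samples. Pyy, the third in Apln-/- and the fourth in wild-type samples, stood at 128 ± 23.5 CPM per kilobase in Apln-/- and 137 ± 11.4 in wild-type samples.

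Cck took the sixth place in Apln-/- samples and the third in wild type, where it lay within its SD of Pyy. Its level per length was 71.2 ± 22.7 CPM per kilobase in Apln-/- and 161 ± 83.5 in wild-type samples. Near it stood Sct with 80.1 ± 11.4 in Apln-/- and 82.6 ± 8.39 in wild-type samples, and Gcg with 74.8 ± 21.6 in Apln-/- and 87.8 ± 14.9 in wild-type samples. Cck, Sct and Gcg could not be ordered in Apln-/- samples, where they lay within their SDs of one another. Far below were Nts (20.7 ± 9.57 in Apln-/-, 18.2 ± 5.56 CPM per kilobase in wild-type samples) and Ghrl (10.4 ± 3.58 in Apln-/-, 21.3 ± 10.8 in wild-type samples). Nts and Ghrl lay within an SD of each other in wild type, and Ghrl and Tac1 did so in Apln-/- samples. The lowest were Tac1 (8.50 ± 2.42 in Apln-/-, 7.52 ± 2.30 in wild-type samples) and Tph1 (3.80 ± 1.21 in Apln-/-, 5.66 ± 0.624 in wild-type samples).

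**Figure D1:**
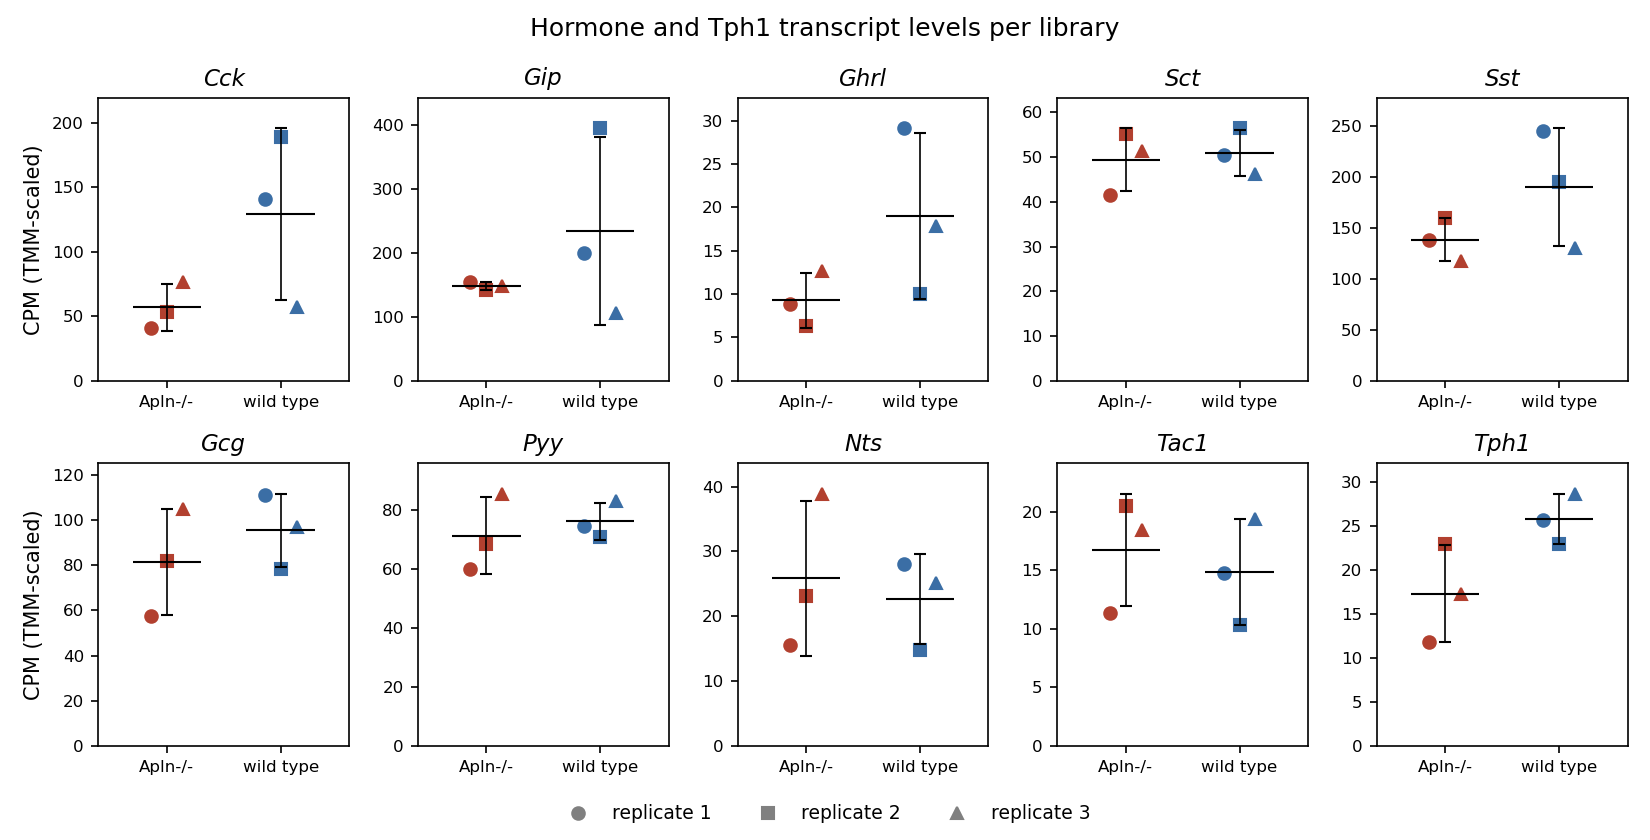
Level of each of the 10 genes in CPM (TMM-scaled, linear axes from 0) in 3 Apln-/- and 3 wild-type libraries, with marker shapes for the replicate number, bars at the mean and whiskers of 1 SD. Wild-type library 2 is the highest for Cck and Gip, wild-type library 1 for Ghrl and Sst, and the groups are separate for Tph1 alone.

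Of the 10 genes, 0 passed the test between Apln-/- and wild-type samples at an adjusted p under 0.05 (edgeR's quasi-likelihood test, Benjamini-Hochberg adjustment over 15122 genes), where 0.172% of all genes tested passed, 0.0595% lower and 0.112% higher in Apln-/- samples. At an unadjusted p under 0.05, 3 of the 10 were lower in Apln-/- samples (Cck, Ghrl and Tph1) against 7.66% of all genes, and 0 were higher against 7.53% of all genes. The log2 fold change was negative for 8 of the 10, against 50.5% of all genes, and its median was -0.34, against -0.01 over all genes. The DESeq2 Wald test called 1 of the 10, Ghrl (adjusted p = 0.0360), where it called 581 of the 15122 genes tested. RNA from sorted cells in bulk cannot tell fewer cells of a type from less RNA per cell, which holds for every comparison here.

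**Figure D2:**
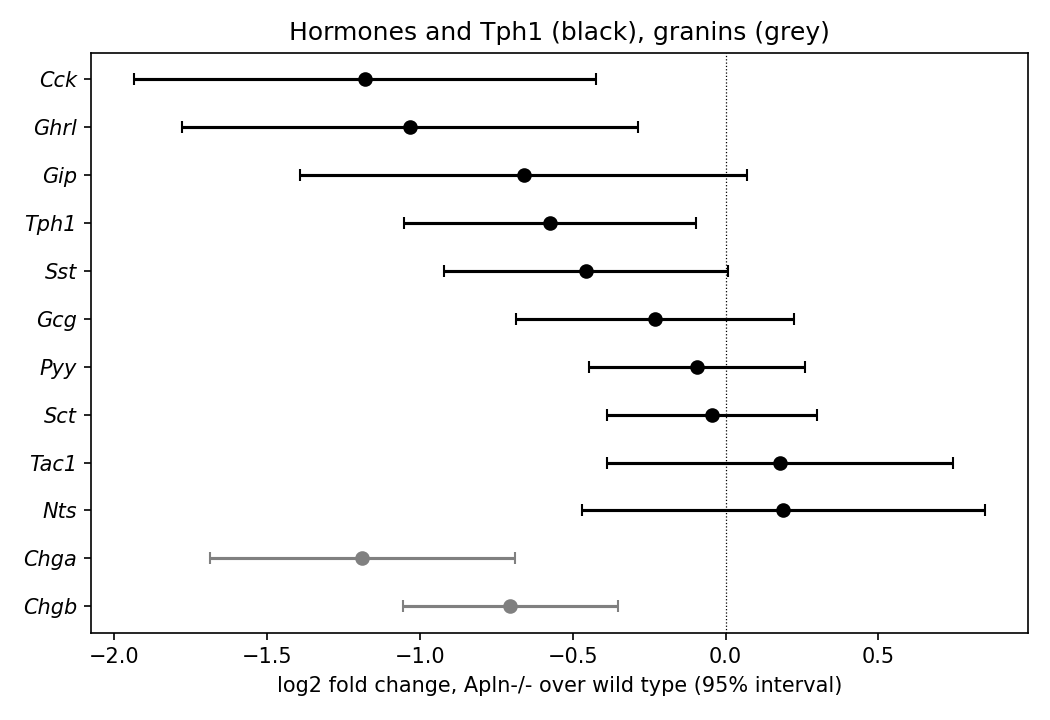
Log2 fold change of Apln-/- over wild type for the 10 genes (black) and the granin genes Chga and Chgb (grey), with 95% intervals from edgeR's quasi-likelihood fit. Points left of the dotted line are lower in Apln-/- samples: Cck, Ghrl, Tph1, Chga and Chgb have intervals that end below 0.

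Among the hormones of the proximal intestine, Cck and Ghrl were the lowest in Apln-/- relative to wild-type samples, Gip varied most within wild type, and Sct had the fold change closest to none. Cck, the precursor of cholecystokinin, which makes the gallbladder contract and the pancreas secrete enzymes, had 40.8, 53.4 and 76.5 CPM in Apln-/- libraries 1, 2 and 3, against 141, 189 and 56.9 CPM in wild-type libraries 1, 2 and 3. Wild-type library 3 lay within the Apln-/- values, and the other 2 wild-type libraries lay above all of them. The fold was 0.442 with a 95% interval of 0.262 to 0.745 (log2 fold change -1.18 ± 0.35 SE, edgeR's quasi-likelihood test, unadjusted p = 0.00513, adjusted p = 0.145). Without wild-type library 3 the adjusted p was 0.0168 at a log2 fold change of -1.53 by the same edgeR test, and without Apln-/- library 1 it was 0.554.

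Ghrl, which encodes ghrelin, the peptide that stimulates appetite and is made mainly in the stomach, had 8.86, 6.32 and 12.7 CPM in Apln-/- libraries 1, 2 and 3, against 29.1, 10.1 and 17.9 CPM in wild-type libraries 1, 2 and 3. The groups overlapped through wild-type library 2, which lay below Apln-/- library 3. The log2 fold change was -1.03 ± 0.34 (SE), and it did not pass the edgeR test (unadjusted p = 0.0107, adjusted p = 0.192). Without wild-type library 1 the log2 fold change was -0.60. Exons of Ghrl overlap those of 2 annotated genes on the opposite strand, Gm26982 and Gm44033, and the sources used here do not state whether counting used strand, so reads of these genes cannot be told apart.

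Gip, the precursor of the glucose-dependent insulinotropic peptide, an incretin that raises insulin release after a meal, had 154, 141 and 148 CPM in Apln-/- libraries 1, 2 and 3, against 200.1, 394 and 106 CPM in wild-type libraries 1, 2 and 3. The 3 Apln-/- libraries lay close together, and the wild-type values ran from below to well above them. The highest wild-type library was 3.71 times the lowest, while the highest Apln-/- library was 1.10 times the lowest. The log2 fold change was -0.66 ± 0.34 (SE; edgeR adjusted p = 0.383), and it was -0.06 without wild-type library 2 and -1.004 without wild-type library 3.

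Sct, which encodes secretin, the peptide that makes the pancreas release bicarbonate, had 41.6, 55.3 and 51.4 CPM in Apln-/- libraries 1, 2 and 3, against 50.4, 56.4 and 46.1 CPM in wild-type libraries 1, 2 and 3. The groups overlapped, and Apln-/- library 1 was the lowest of the 6. The fold was 0.969 with a 95% interval of 0.764 to 1.23 (edgeR adjusted p = 0.929), so a difference of the size of that of Cck lay outside the interval. Corrected for length and GC content, the log2 fold change was -0.21, against -0.05 without the correction (edgeR adjusted p = 0.664 with it).

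Sst, the precursor of somatostatin, which restrains the release of other gut hormones, had 138, 159.9 and 117 CPM in Apln-/- libraries 1, 2 and 3, against 245, 194 and 130.3 CPM in wild-type libraries 1, 2 and 3. Wild-type library 3 again lay within the Apln-/- values. The log2 fold change was -0.46 ± 0.21 (SE; edgeR unadjusted p = 0.0532, adjusted p = 0.339). It was -0.24 without wild-type library 1.

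For the hormones of the distal intestine the values of the groups overlapped. Gcg, which encodes proglucagon and so the glucagon-like peptides, had 57.6, 81.7 and 104.7 CPM in Apln-/- libraries 1, 2 and 3, against 111, 78.5 and 96.9 CPM in wild-type libraries 1, 2 and 3. Pyy, which encodes the satiety peptide YY and is often made in the same L cells, had 60.0, 68.3 and 85.5 CPM in Apln-/- libraries 1, 2 and 3, against 74.6, 70.7 and 83.1 CPM in wild-type libraries 1, 2 and 3. For both genes Apln-/- library 1 was the lowest of the 6 and wild-type library 2 the lowest of its group.

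The 95% interval of the fold was 0.621 to 1.17 for Gcg and 0.733 to 1.197 for Pyy, with edgeR adjusted p of 0.653 and 0.834. The log2 fold change was -0.23 for Gcg and -0.09 for Pyy, and corrected for length and GC content it was -0.50 for Gcg (edgeR unadjusted p = 0.0342, adjusted p = 0.381) and -0.29 for Pyy (edgeR adjusted p = 0.494). Leaving out 1 library gave -0.03 (without Apln-/- library 1) to -0.45 (without Apln-/- library 3) for Gcg. Nts, the precursor of neurotensin, which slows gut movement and aids fat absorption, had 15.5, 23.1 and 38.9 CPM in Apln-/- libraries 1, 2 and 3, against 28.0, 14.8 and 25.2 CPM in wild-type libraries 1, 2 and 3. Its spread was the wider one in Apln-/- samples, where the highest library was 2.51 times the lowest. The log2 fold change of Nts was 0.19 ± 0.30 (SE; edgeR adjusted p = 0.819), and it was -0.23 without Apln-/- library 3.

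Of the enterochromaffin genes, Tph1 was lower in Apln-/- samples without overlap and Tac1 was not. Tph1 had 11.9, 22.93 and 17.2 CPM in Apln-/- libraries 1, 2 and 3, against 25.7, 23.04 and 28.7 CPM in wild-type libraries 1, 2 and 3. The groups were separate only by the gap between Apln-/- library 2 and wild-type library 2. Tph1 was the 1 gene of the 10 that was lower without overlap, against 9.56% of all genes tested, and 0 of the 10 were higher without overlap, against 11.3%. The fold was 0.672 with a 95% interval of 0.483 to 0.935 (edgeR unadjusted p = 0.0221, adjusted p = 0.243), and the log2 fold change of -0.57 was -0.36 without Apln-/- library 1.

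Tac1, the precursor of substance P and neurokinin A, had 11.4, 20.5 and 18.4 CPM in Apln-/- libraries 1, 2 and 3, against 14.8, 10.3 and 19.4 CPM in wild-type libraries 1, 2 and 3. The values overlapped, and the log2 fold change was 0.18 ± 0.26 (SE; edgeR adjusted p = 0.799). It was -0.04 without wild-type library 2. Tph1 and Tac1 are both products of enterochromaffin cells, and the difference between their fold changes was not tested.

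Single libraries set much of the spread within a group. Apln-/- library 1 was the lowest of its group for 7 of the 10 genes, and Apln-/- library 3 the highest for 5 (Cck, Gcg, Ghrl, Nts and Pyy). In wild type, library 2 was the lowest for 6 genes and the highest for 3 others (Cck, Gip and Sct), while library 3 was the lowest for the remaining 4 (Cck, Gip, Sst and Sct). The ratio of the highest to the lowest library was larger in wild type for 5 of the 10 genes.

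Genes that mark regions along the intestine varied between the same libraries. Cck, Gip and Sct had the same order of wild-type libraries as Gata4, a transcription factor gene of the proximal small intestine. Sct ran only from 46.1 to 56.4 CPM within wild type, and 3 libraries have few possible orders. Gata4 had 9.52, 9.64 and 12.6 CPM in Apln-/- libraries 1, 2 and 3, against 8.85, 26.8 and 5.90 CPM in wild-type libraries 1, 2 and 3. Fabp6, the bile acid binding protein gene of the ileum, had 40.1, 125 and 52.7 CPM in Apln-/- libraries 1, 2 and 3, against 17.7, 36.7 and 150.1 CPM in wild-type libraries 1, 2 and 3. Wild-type library 3, low in Cck and Gip, was the lowest of the 6 in Gata4 and the highest in Fabp6, and wild-type library 2 was the highest in Gata4.

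The summed level of 4 proximal genes (Gata4, Onecut2, Pdx1 and Lct) was 17.1, 16.7 and 18.6 CPM in Apln-/- libraries 1, 2 and 3, against 16.4, 37.5 and 8.20 CPM in wild-type libraries 1, 2 and 3. That of 4 distal genes (Fabp6, Slc10a2, Slc51a and Slc51b) was 64.9, 187 and 88.7 CPM in Apln-/- libraries 1, 2 and 3, against 33.3, 63.2 and 203 CPM in wild-type libraries 1, 2 and 3. Ghrl, also a proximal hormone, was lowest within wild type in library 2, where the proximal sum was highest, and the proximal gene Pdx1 was highest in library 1 (1.71, 0.241 and 0 CPM in wild-type libraries 1, 2 and 3). Of the distal hormones, Pyy was highest within wild type in library 3, where the distal sum was highest, while Gcg and Nts were highest in library 1, where it was lowest. Both regional lists were chosen after the hormone values were seen, and their part in the hormone differences was not tested.

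**Figure D3:**
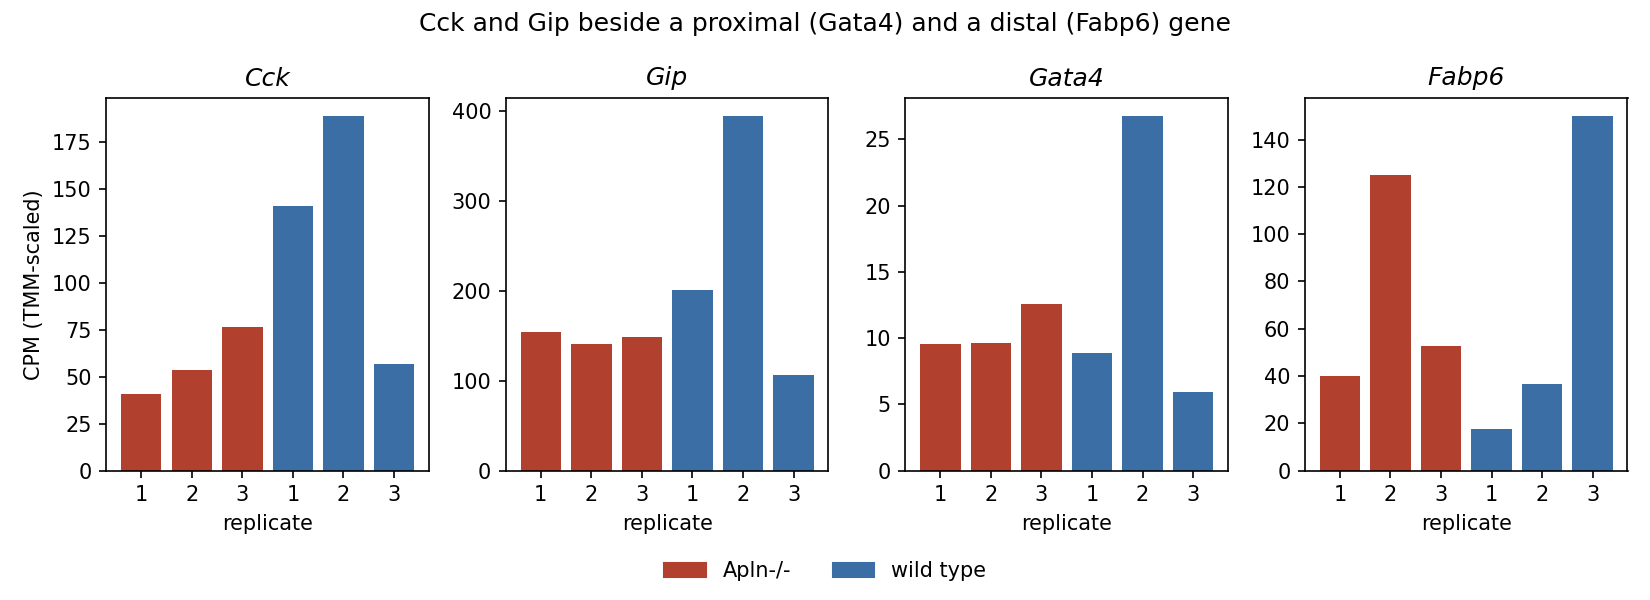
Levels in CPM (TMM-scaled) of Cck, Gip, the proximal gene Gata4 and the distal gene Fabp6 in each library, with Apln-/- replicates in red and wild-type replicates in blue. Wild-type library 2 has the most Gip (394) and Gata4 (26.8), and wild-type library 3 the least Gip (106) and Gata4 (5.90) and the most Fabp6 (150.1).

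Within the pool of these 10 transcripts, Gip and Sst held the largest mean shares in both groups, and the shares of 9 of the 10 overlapped between the groups. The summed level was 539.9, 632 and 670.5 CPM in Apln-/- libraries 1, 2 and 3, against 919.7, 1041 and 611 CPM in wild-type libraries 1, 2 and 3. Gip held 24.3% ± 3.71 of this sum in Apln-/- and 25.7% ± 10.8 in wild-type samples, and Sst 22.8% ± 4.59 in Apln-/- and 22.2% ± 4.06 in wild-type samples. Cck held 7.55%, 8.45% and 11.4% in Apln-/- libraries 1, 2 and 3, against 15.3%, 18.1% and 9.32% in wild-type libraries 1, 2 and 3, and the groups overlapped through wild-type library 3 (two-sided exact permutation p = 0.2).

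The share of Sct was 7.71%, 8.74% and 7.66% in Apln-/- libraries 1, 2 and 3, against 5.48%, 5.42% and 7.55% in wild-type libraries 1, 2 and 3. Its groups were separate by a narrow gap (exact permutation test, p = 0.1, two-sided), and 3 samples against 3 cannot give a smaller p. With levels per length in place of CPM, the mean share of Sct was 9.79% in Apln-/- and 7.55% in wild-type samples. The exact permutation p was then 0.3. Relative to the summed CPM of the 10 genes, 6 of the 10 were higher by the means in Apln-/- samples, against 82.2% of all genes. Sct was the 1 gene of the 10 that was higher without overlap, against 21.5% of all genes, and 0 were lower without overlap, against 0.992%. For the other 9 genes the groups overlapped, with exact permutation p of 0.2 to 1.

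**Figure D4:**
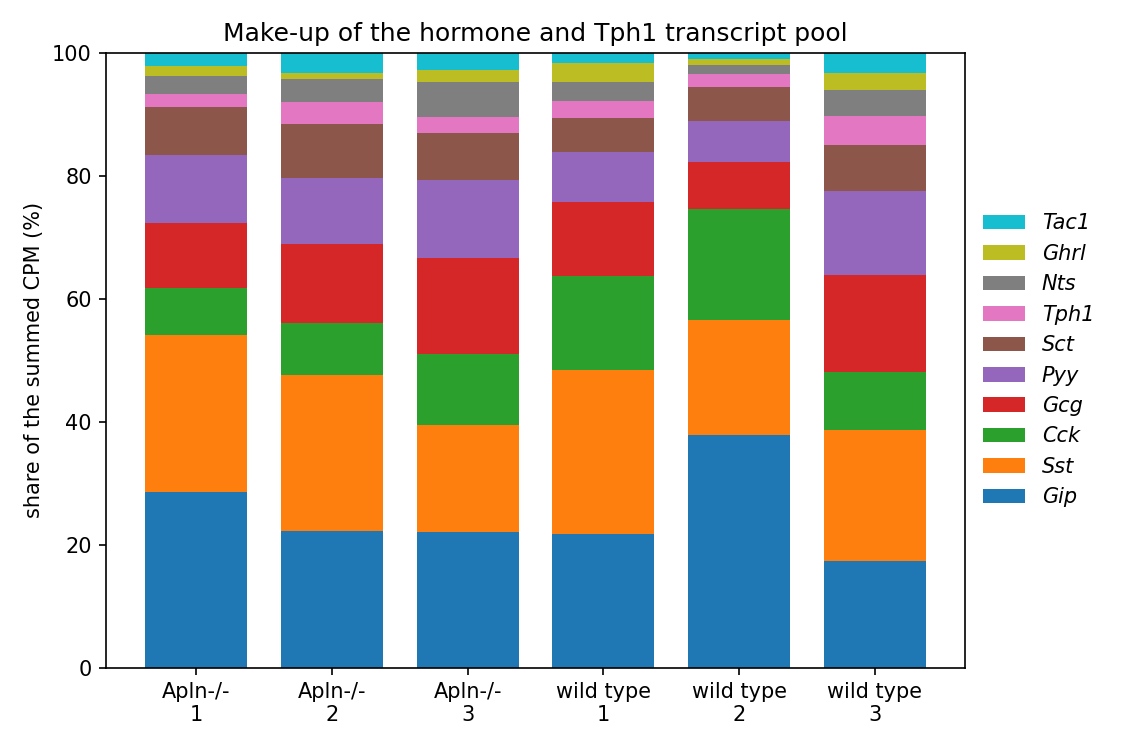
Share of each of the 10 genes in their summed CPM (percent, stacked to 100) in every library. The Gip share runs from 22.1% to 28.6% in Apln-/- libraries and from 17.4% to 37.9% in wild-type libraries, and the Cck share is highest in wild-type libraries 1 and 2.

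The granins gave a common scale for enteroendocrine cells, since they are packed into the granules of most of them. Chga and Chgb also stand on the list of enterochromaffin genes given below, so this scale is not neutral between subtypes. Chga had 33.8, 49.1 and 42.0 CPM in Apln-/- libraries 1, 2 and 3, against 122, 101 and 61.8 CPM in wild-type libraries 1, 2 and 3, and Chgb had 296, 393 and 355 CPM in Apln-/- libraries against 635, 535 and 529 CPM in wild-type libraries in the same order. Neither passed the edgeR test (adjusted p = 0.0532 for Chga and 0.0879 for Chgb), and for both the groups did not overlap. Relative to the summed level of Chga and Chgb, 8 of the 10 genes were higher in Apln-/- samples, against 97.5% of all genes tested.

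The exceptions were Cck and Ghrl, whose levels relative to the granins were lower by 0.29 and 0.16 on the log2 scale, with overlap between the groups (two-sided exact permutation p of 0.7 and 0.6). Tph1 was close to the granins, at 3.60%, 5.19% and 4.34% of their summed level in Apln-/- libraries 1, 2 and 3, against 3.397%, 3.62% and 4.86% in wild-type libraries 1, 2 and 3. Sct stood at 12.6%, 12.5% and 12.9% of the granin level in Apln-/- libraries 1, 2 and 3, against 6.66%, 8.87% and 7.81% in wild-type libraries 1, 2 and 3.

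Sct was higher in each Apln-/- library than in any wild-type library on this scale. The same held for Gcg, Nts, Pyy and Tac1, so for 5 of the 10 genes, each at the smallest exact permutation p of 0.1, against 60.8% of all genes tested. None of the 10 (0) was lower without overlap, against 0.119% of all genes. This scale moves every gene by the difference in the granins themselves, so these counts say nothing particular to the hormones. Relative to the summed level of all listed granin and prohormone processing genes, the exact permutation p stayed at 0.1 for Pyy and Sct. For Gcg, Nts and Tac1 it was 0.2.

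Other genes of the enteroendocrine pathway, from lists chosen with earlier results of these data known, held 0 genes that passed the edgeR test in either direction, and a gene can stand on more than 1 list. The counts of the lists at an unadjusted p under 0.05 are to be read against 7.66% lower and 7.53% higher of all genes tested, and their medians against -0.01. Of 13 tested genes for granins and prohormone processing, 5 were lower in Apln-/- samples at an unadjusted p under 0.05 and 0 higher, with a median log2 fold change of -0.29. They included Cpe, the carboxypeptidase that trims the cut hormones (11.7 ± 1.79 CPM in Apln-/- and 17.4 ± 2.92 in wild-type samples), and the convertase gene Furin (5.30 ± 0.0504 in Apln-/- and 8.995 ± 3.37 in wild-type samples).

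Of 26 tested genes of excitability and exocytosis, by which the cells release hormone, 10 were lower at an unadjusted p under 0.05 and 0 higher (median -0.60). Rimbp2, which tethers calcium channels at release sites, had 2.57 ± 0.460 CPM in Apln-/- and 7.01 ± 0.485 in wild-type samples, and the calcium channel gene Cacna1c 1.06 ± 0.268 in Apln-/- and 4.27 ± 1.02 in wild-type samples (edgeR adjusted p = 0.0517 for both). Rph3al, an effector of Rab proteins on granules, had 5.03 ± 1.62 CPM in Apln-/- and 11.8 ± 4.21 in wild-type samples. The granule GTPase gene Rab3c had 6.50 ± 2.63 CPM in Apln-/- and 13.2 ± 2.78 in wild-type samples.

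Of 22 tested transcription factor genes, 8 were lower and 0 higher at an unadjusted p under 0.05 (median -0.57). Atoh1, which directs progenitors to the secretory fate, had 5.34 ± 0.602 CPM in Apln-/- and 9.42 ± 2.24 in wild-type samples, and Nkx2-2 1.94 ± 0.493 in Apln-/- and 3.84 ± 0.669 in wild-type samples. Fev, a factor of serotonin cells, had 2.54 ± 0.625 CPM in Apln-/- and 5.14 ± 2.33 in wild-type samples. Insm1, a factor of endocrine differentiation, had 1.85 ± 0.761 CPM in Apln-/- and 5.70 ± 4.87 in wild-type samples, where wild-type library 2 had 11.3 CPM and wild-type libraries 1 and 3 had 2.18 and 3.66 CPM.

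Around Tph1, 14 genes of the serotonin pathway were tested, of which 2 were lower (Tph1 and Slc18a1) and 1 higher (Maoa) at an unadjusted p under 0.05, with a median of 0.04. Of all genes tested 7.66% were lower and 7.53% higher at that threshold, so 1 of 14 higher is near the share of all genes, and Tph1 is itself 1 of the 2 lower. Slc18a1, which loads serotonin into vesicles, had 6.73 ± 0.848 CPM in Apln-/- and 10.3 ± 2.91 in wild-type samples. Maoa, the oxidase that breaks serotonin down and that enterocytes also express, had 73.9 ± 9.21 CPM in Apln-/- and 51.0 ± 11.2 in wild-type samples. Ddc, the second enzyme of the synthesis, had 12.6 ± 0.885 CPM in Apln-/- and 14.4 ± 2.33 in wild-type samples.

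Among further peptide hormones, 14 of 24 listed genes were in the table and 6 were tested, 1 of them lower and 1 higher at an unadjusted p under 0.05. Ucn3, a urocortin of enterochromaffin cells, had 0.808 ± 0.300 CPM in Apln-/- and 2.41 ± 1.75 in wild-type samples. Guca2b, the uroguanylin gene, which other epithelial cells express too, had 29.1 ± 1.503 CPM in Apln-/- and 20.3 ± 4.58 in wild-type samples. Insl5, the L cell hormone of the colon, had 0, 1 and 3 counts in Apln-/- libraries 1, 2 and 3, against 2, 0 and 0 counts in wild-type libraries 1, 2 and 3.

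Of 9 tested genes on a list of receptors, 3 were lower and 0 higher at an unadjusted p under 0.05 (median -0.11), against 7.66% lower and 7.53% higher of all genes. Sort1, a sorting receptor that binds neurotensin, had 59.8 ± 3.51 CPM in Apln-/- and 79.3 ± 14.9 in wild-type samples. Igf1r, listed though not a receptor for a product of the 10 genes, had 19.0 ± 2.22 CPM in Apln-/- and 25.3 ± 1.15 in wild-type samples. Glp1r, the receptor of glucagon-like peptide 1, had 0.775 ± 0.615 CPM in Apln-/- and 2.30 ± 1.16 in wild-type samples. Of 20 tested nutrient and chemical sensor genes, 3 were lower and 0 higher at the same threshold (median -0.26), against the same 7.66% and 7.53% of all genes, among them Gpr119, a lipid sensor, with 0.281 ± 0.0837 CPM in Apln-/- and 0.823 ± 0.334 in wild-type samples. Another was Trpm5, a channel gene that tuft cells express strongly, with 9.70 ± 3.44 CPM in Apln-/- and 19.5 ± 3.46 in wild-type samples.

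Genes of the subtypes other than the 10 gave counts on both sides of the division into enterochromaffin and peptide-making cells. Of 15 tested enterochromaffin genes, 7 were lower and 0 higher at an unadjusted p under 0.05 (median -0.54), Chga and Chgb among them. Of 17 tested peptidergic genes, 3 were lower and 0 higher (median -0.35), with Rfx6 at 5.29 ± 0.223 CPM in Apln-/- and 8.90 ± 3.31 in wild-type samples. The difference between the 2 lists was not tested.

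Over the 6 libraries, the profile closest to each hormone among 129 tested genes of these lists was measured by the root mean square distance of centred log2 CPM, as a description. Pyy and Gcg were near each other at 0.19, and Cacna1h, a calcium channel gene of low level, was the nearest to both (0.15 for Gcg and 0.12 for Pyy). Sst lay nearest to Ffar1, a fatty acid receptor gene (0.11), and Sct to Slc15a1, the peptide transporter of enterocytes (0.13). Cck had the largest distance to its nearest gene (0.31, Rph3al), followed by Ghrl (0.29, Rab3a). The values were not scaled to the spread of each gene, so a wide spread over the libraries itself adds to the distance.

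Among markers of other cells that can hold these transcripts, those of enteric neurons and of islet and acinar cells were low. The summed level of 13 enteric neuron genes, cells that also express Tac1 and Sst, was 2.77 to 4.89 CPM in Apln-/- libraries and 2.65 to 6.31 CPM in wild-type libraries.

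Of 12 mast cell genes, which matter because mast cells make Tph1, 6 were in the table, and Kit, which crypt epithelium also expresses, held most of their sum. That sum was 12.0 to 20.4 CPM in Apln-/- libraries and 24.0 to 33.8 CPM in wild-type libraries. Like Tph1, it was lower in each Apln-/- library than in any wild-type library, and Kit alone had 15.4 ± 3.56 CPM in Apln-/- and 27.4 ± 4.81 in wild-type samples. Hdc, the only other mast cell gene tested, had 1.13 ± 0.697 CPM in Apln-/- and 1.08 ± 0.445 in wild-type samples. Mast cells carry CD45, against which the cells were sorted. Ptprc, the gene for CD45, was still detected and was lower in Apln-/- samples without overlap (edgeR unadjusted p under 0.05). The part of mast cells in the Tph1 difference was not tested. The defining protease and receptor genes were at or near 0. Fcer1a had 0 counts in each Apln-/- library and 1, 0 and 0 counts in wild-type libraries 1, 2 and 3. Mcpt1 had 0 counts in each Apln-/- library and 12, 0 and 0 counts in wild-type libraries 1, 2 and 3.

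The summed level of 7 islet and acinar genes was 3.37 to 5.91 CPM in Apln-/- libraries and 3.61 to 5.13 CPM in wild-type libraries. For other epithelial types, 12 tuft cell genes summed to 43.8 to 93.1 CPM in Apln-/- libraries and 111 to 162 CPM in wild-type libraries. Of these 12, 6 were lower and 0 higher at an unadjusted edgeR p under 0.05, with a median log2 fold change of -0.89. For 9 Paneth cell genes the sum was 1171 to 2763 CPM in Apln-/- libraries and 697 to 1132 CPM in wild-type libraries. Of these 9, 6 were higher and 0 lower at that threshold (median 0.84). Of all genes tested 7.66% were lower and 7.53% higher. The part of tuft and Paneth cells in the hormone differences was not tested.

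Of the 10 genes, 8 have a longest transcript of 555 to 1248 nucleotides, and fold changes over all genes moved with length. Among the 8 bins of genes ordered by transcript length, the bin of shortest transcripts had a median log2 fold change of 0.25 and the bin of longest transcripts one of -0.19. After a loess fit on length and GC content was subtracted, 10 of the 10 log2 fold changes were negative, against 52.6% of all genes, with a median of -0.52. At an unadjusted p under 0.05, 6 of the 10 were then lower (Cck, Gcg, Gip, Sst, Ghrl and Tph1), against 6.3% of all genes, and 0 passed edgeR's adjusted p of 0.05.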

How the data were processed

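The authors deposited 1 table of unnormalized read counts per gene. Per the submitters' processing notes, the tools and build include STAR 2.6.1, HTSeq and mm10; the annotation release and strand setting are not known here. Per the labels' protocols, RNA was amplified with a whole-transcriptome kit before library preparation. The table has 6 sample columns, and 0 columns were without a sample. GENCODE M21 on the same build matched 28543 of 28564 identifiers.

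The test was edgeR 4.0.16 (R 4.3.3) after filterByExpr (count minimum 10, total minimum 15), with TMM, glmQLFit and glmQLFTest without covariates, Benjamini-Hochberg adjustment over all genes tested and a threshold of 0.05. Shares and levels relative to granins (pseudocount 0.5 CPM) were compared by exact permutation tests (Python 3.11.15, scipy 1.17.1). The labels do not say whether the biological replicates are separate animals, so p-values measure the spread between these samples. Libraries of 1 group differed by a chi-square of 7.60 to 54.8 per degree of freedom, so none looked like a copy of another.

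The 10 genes and all lists were chosen with earlier results of these data known. Besides the 10, the text names Apln, Chga, Chgb, listed genes of lowest p per list and nearest profiles. Ddc, Insl5 and the regional genes, outside this rule, were chosen after their values were seen, as were the mast cell genes given by value. Some listed genes are not reported here. Alternatives were other scalings, DESeq2 1.42.0, other filters, leaving out the 5 most abundant entries, a loess correction (span 0.5) for length and GC content, a replicate block and leaving out each library.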

Additional observations from a re-analysis of the deposited data

How the results depend on the processing

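The count of 26 genes over the whole table (17 higher, 9 lower in Apln-/-) depended on the processing: it was 1 (0 higher, 1 lower) with DESeq2 size factors, upper-quartile scaling, without the 5 most abundant entries or with the length and GC correction, 581 with the DESeq2 Wald test, 629 with no filter, 117 with at least 1 CPM in 3 libraries, and 0 to 358 when 1 library was left out (358 without wild-type library 3, 1 without Apln-/- library 2 and 0 without any of the other 4). With the replicate block it was 173, and 28 with the block and the length and GC correction. The replicate numbers gave no pairing: deviations of same-numbered libraries correlated at 0.066, 0.055 and 0.0048 over genes, Apln-/- library 3 correlated best with another number, and the labels' title and description number the Apln-/- samples differently. Of the 10 genes, Ghrl was called (adjusted p under 0.05) by the DESeq2 Wald test, and Cck by edgeR without wild-type library 3. The only other calls came with no filter, where edgeR's adjusted p was 3.59e-08 for Cck, 0.000375 for Ghrl and 0.0112 for Gip. Over all genes, 629 of 28564 were called with no filter, 581 of 15122 by the Wald test and 358 of 15749 without wild-type library 3. With no filter the log2 fold change of Cck was -1.18, as with the filter, but its SE was 0.175 against 0.348. The SE of Gip was 0.173 against 0.337, and that of Ghrl 0.216 against 0.344. The cause of these calls was not tested. With the block, 0 of the 10 genes were called, the lowest edgeR adjusted p being 0.0820 for Ghrl. Cck, Ghrl, Gip, Sst, Gcg and Tph1 stayed negative under every alternative run. Corrected for length and GC content, the log2 fold change was -0.10 for Nts and -0.012 for Tac1 (-0.17 and -0.014 with the block added), -0.50 for Gcg, -0.29 for Pyy and -0.21 for Sct. Leaving out 1 library gave -0.23 to 0.46 for Nts, -0.24 to 0.019 for Pyy, -0.13 to 0.068 for Sct and -0.039 to 0.42 for Tac1. Differences in share ran from -0.896 to 3.27 percentage points for Gcg, -5.50 to 4.73 for Gip, -1.22 to 3.20 for Sst and -0.951 to 0.295 for Tph1. Log2 differences relative to granins ran from -0.71 to 0.092 for Cck, -0.081 to 0.81 for Gip and -0.51 to 0.17 for Ghrl. The difference in the summed level of the 10 genes, -243 CPM, was -366 to -151 CPM when 1 library was left out. Depth limits genes of few counts on several lists, such as minor hormones, transcription factors and the markers of enteric neurons, and Apln itself; 3 counts stand for 0.0946 to 0.142 CPM, a floor that covers counting error only, since amplified reads are not independent molecules.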
